A study of Mus musculus with 2 samples.

Results

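The milk protein genes described here were the caseins Csn1s1, Csn2, Csn1s2a and Csn3, the whey protein genes Wap and Lalba, and the genes Glycam1 and Mfge8, that is 8 of the 32285 genes in the count matrices. They were chosen by name as the major milk proteins, and their molecules were counted in every cell and in empty droplets of single cell libraries from mouse mammary gland. The library labelled Ctrl came from control mice and the library labelled CL from mice given clodronate liposomes, vesicles whose drug kills the phagocytes that ingest them. Per the methods the animals were adult wild-type females, dosed intraperitoneally and repeatedly before harvest. The sample labels put the age at 9 to 10 weeks, while the protocol gives 8 to 10 weeks. Cells with the endothelial marker CD31 or the red cell marker TER119 were sorted out, and CD45+ immune cells were included. How many animals were pooled in each library was not given in the sources used here. Since each group is 1 library, no test between the groups was possible and replicate error is unknown. All intervals are exact 95% intervals that cover counting error only.

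Milk proteins are made by luminal cells of the secretory lineage, and most are switched on in pregnancy by prolactin, which acts through its receptor, the kinase JAK2 and the transcription factor STAT5. Outside pregnancy and lactation the secretory-lineage luminal cells are largely progenitors; the reproductive state of these mice was not given beyond adult. Casein genes lie together in a cluster; beta-casein (Csn2) and the alpha-caseins form the bulk of the micelle, and kappa-casein (Csn3) coats and stabilises it. Wap and alpha-lactalbumin (Lalba), the regulatory subunit of lactose synthase, are whey proteins. Mfge8 coats the milk fat globule and is also known as a bridge by which phagocytes take up dying cells, made in many tissues, and Glycam1 is a mucin-like protein of milk and of high endothelial venules.

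To show what the members' start sites share, the bases upstream of each were read from the RefSeq promoter table (GRCm38.p6), in which 7 of the 8 members were found and Csn3 was not. The STAT5 motif TTCNNNGAA, a palindrome that reads alike on both strands, lay within 250 bases before the start of 3 members, against 7.02% of 32851 promoters of that length. It began 100 bases before the start of Csn1s1 (TTCTTAGAA), 93 before that of Csn2 (TTCTTGGAA) and 145 before that of Glycam1 (TTCCCAGAA). The stretches below are 5′ to 3′ with the motif in capitals. They show the caseins that hold the motif and, beside them, Lalba and Mfge8, which were well above background in secretory-lineage cells and whose 250 bases lack these letters. They are, in this order, chr5:87665958-87666207 on the plus strand and, on the minus strand, chr5:87699500-87699528, chr15:98482722-98482933 and chr7:79149061-79149310.
Csn1s1: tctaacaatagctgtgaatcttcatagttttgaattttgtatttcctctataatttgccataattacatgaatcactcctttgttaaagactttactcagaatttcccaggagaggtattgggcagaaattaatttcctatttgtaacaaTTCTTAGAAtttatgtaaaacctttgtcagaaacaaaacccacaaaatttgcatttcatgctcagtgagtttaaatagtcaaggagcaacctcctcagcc
Csn2: tcacgtagacTTCTTGGAAttgaagggac
Lalba: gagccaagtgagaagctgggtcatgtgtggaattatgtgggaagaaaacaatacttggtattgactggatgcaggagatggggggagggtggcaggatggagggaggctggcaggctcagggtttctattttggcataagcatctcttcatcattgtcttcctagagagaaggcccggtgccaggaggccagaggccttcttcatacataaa
Mfge8: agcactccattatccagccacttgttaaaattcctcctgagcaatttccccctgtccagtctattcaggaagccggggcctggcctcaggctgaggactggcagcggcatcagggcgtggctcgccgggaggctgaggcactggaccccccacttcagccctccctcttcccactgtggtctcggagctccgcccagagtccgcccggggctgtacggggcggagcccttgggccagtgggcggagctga
For Csn2 only 29 bases around the motif are shown, since a gene model of GENCODE starts further upstream, and for Lalba the 212 bases outside such a model. Base composition set the members apart as well. The upstream 250 bases of Mfge8 were 65.2% G and C with 12 CpG, while those of Csn1s1 were 32.8% and of Csn2 36.8%, around a median of 52.4% over all promoters. A match is a description and not a bound site.

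Depth was counted in unique molecular identifiers (UMIs), each marking a captured transcript, of which Ctrl held 118743318 and CL 155765480. After filtering 5937 and 8826 cells remained, with medians of 11351 and 10337 UMIs. Cells were clustered without the 8 members and named from marker genes. The class called secretory-lineage luminal-like held 2657 Ctrl cells (44.8%) and 3921 CL cells (44.4%). It held UMIs of all 10 of its naming markers, but so did several other classes, so this does not set it apart. Macrophage-like cells, the cells the treatment is meant to remove, made up 0.994% [0.757, 1.28] of Ctrl and 2.88% [2.54, 3.25] of CL. They formed 2 clusters. Cluster 0, led by antigen presentation genes with C1qa, C1qb and C1qc, held 41 Ctrl cells (0.691% [0.496, 0.936]) and 43 CL cells (0.487% [0.353, 0.656]), with intervals that overlap. Cluster 19, led by Lyz2 and S100a8 and with neutrophil markers next, held 18 (0.303%) and 211 cells (2.39%), so the higher share in CL lay in that cluster. The summed share goes against the label and that of cluster 0 does not, and the proportions in which sorted cells were pooled are not given, so the groups are called by their labels throughout. The basal-like share was 6.89% [6.26, 7.56] in Ctrl, against 5.03% [4.58, 5.51] in CL. Among the candidate cells 22 barcodes were shared by the libraries. Levels are CPM, a gene's share of all UMIs in a class on a fixed scale. UMIs are counted from transcript ends and were not scaled by gene length. The 10 naming markers of the secretory-lineage class summed to 13271 CPM there in Ctrl and 12837 CPM in CL. Next highest for these markers were macrophage-like cells in Ctrl, at 6022 CPM, and endothelial-like cells in CL, at 4793 CPM.

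Csn3 and Mfge8 were the members with substantial expression, and both were highest in secretory-lineage luminal-like cells. Csn3 reached 4082 CPM [4060, 4105] there in Ctrl, with 125709 UMIs, and 2586 CPM [2571, 2602] in CL, with 113357. Mfge8 stood at 1673 CPM [1659, 1687] and 1749 CPM [1737, 1761]. Ranked among all genes by CPM in these cells, Csn3 was at place 35 of 18773 detected genes in Ctrl and 74 of 19246 in CL, and Mfge8 at 109 and 106. Lalba was much lower, at 59.5 CPM [56.8, 62.3] in Ctrl and 22.0 CPM [20.6, 23.4] in CL, and at places 2403 and 4954.

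Free RNA from broken cells was measured in droplets of 100 to 300 UMIs, which held too little RNA to be cells. In these empty droplets Csn3 had 974 CPM in Ctrl and 685 CPM in CL, Mfge8 301 and 374, and Lalba 8.07 and 4.32. Each lay below its level in secretory-lineage cells of the same library. T and NK-like cells, which should lack these genes, carried 119 and 90.2 CPM of Csn3 and 46.1 and 72.1 CPM of Mfge8. Of the Csn3 UMIs 1 cell held 61 of 129 in Ctrl and 1 held 94 of 345 in CL, without which the level was 63.5 CPM [49.3, 80.5] and 65.8 CPM [57.9, 74.5].

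Csn3 in the other named classes lay below the empty droplets of its library. Hormone-responsive luminal-like cells, the luminal cells that carry the oestrogen and progesterone receptors, had 97.3 CPM [94.4, 100.2] in Ctrl and 99.8 CPM [97.1, 102.5] in CL. Basal-like cells, the contractile outer layer, had 98.6 and 76.1 CPM. Endothelial-like cells had 329 CPM [265, 403] and 185 CPM [150, 227], from 92 and 93 UMIs of which 1 cell held 37 in Ctrl and 1 held 45 in CL. Without that cell they had 210 CPM [158, 273] and 99.1 CPM [73.1, 131]. Fibroblast-like cells had 156 and 124 CPM. Macrophage-like cells had 81.4 and 74.2 CPM. Against T and NK-like cells the endothelial-like level was 2.76 times as high in Ctrl and 2.05 times in CL, and the fibroblast-like level 1.31 and 1.38 times, or 3.30 and 1.51 and 1.82 and 1.64 times without the cell with most Csn3 in each class. The hormone-responsive, basal-like and macrophage-like levels did not exceed that of T and NK-like cells beyond counting error. Without the cell with most Csn3 in each class, however, the hormone-responsive level did, at 91.5 and 97.3 CPM. The basal-like level was then 1.36 times that of T and NK-like cells in Ctrl and 0.94 times in CL. Which part of these levels was free RNA was not tested, and none is read as expression by the class. In Ctrl the intervals of the hormone-responsive, basal-like and macrophage-like cells overlapped, while in CL the hormone-responsive cells lay above the other two. An unnamed cluster with markers of both luminal classes and a median of 27380.5 UMIs per cell had 1003 and 814 CPM of Csn3.

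For Mfge8 3 further classes stood well above T and NK-like cells. After the secretory-lineage cells came, among the named classes, basal-like cells with 346 CPM [327, 365] in Ctrl and 294 CPM [275, 314] in CL, fibroblast-like cells with 334 and 314 CPM [287, 343], and endothelial-like cells with 315 and 378 CPM [327, 436]. In Ctrl the intervals of these 3 classes overlapped. In CL the endothelial-like interval lay above the basal-like one, but 1 cell held 63 of its 190 UMIs, and without that cell the level was 271 CPM [226, 323]. Their levels lay near those of empty droplets, and below them in CL for basal-like and fibroblast-like cells, and the part of free RNA in them was not tested. Against T and NK-like cells the basal-like level was 7.49 times as high in Ctrl and 4.08 times in CL, the fibroblast-like level 7.23 and 4.35 times and the endothelial-like level 6.82 and 5.25 times. The ratio of Csn3 to Mfge8 in cells was mostly below that in free RNA. In empty droplets 3.24 Csn3 UMIs [3.12, 3.37] were counted for each Mfge8 UMI in Ctrl and 1.83 [1.76, 1.90] in CL, whereas in basal-like cells the ratio was 0.285 [0.254, 0.320] and 0.259 [0.223, 0.300]. In fibroblast-like cells it was 0.468 and 0.396, and in endothelial-like cells 1.05 and 0.489. It was also below that of the droplets in hormone-responsive luminal-like cells (1.47 and 0.955), in secretory-lineage cells (2.44 and 1.48), in macrophage-like cells of Ctrl (1.24) and in T and NK-like cells of CL (1.25), so a mix unlike the droplets was not particular to the 3 classes. An unnamed cluster of 37 Ctrl and 44 CL cells with markers of pericytes and of basal cells held 1021 and 1371 CPM of Mfge8, against 212 and 71.3 CPM of Csn3, or 56.1 and 24.3 CPM without the cell with most Csn3 in each library. Hormone-responsive luminal-like cells had 66.2 and 104.5 CPM of Mfge8, below the empty droplets, and T and NK-like cells differed between the libraries by a like amount (log2 ratios of 0.66 and 0.64), so no difference of the cells themselves is read from it.

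**Figure D1:**
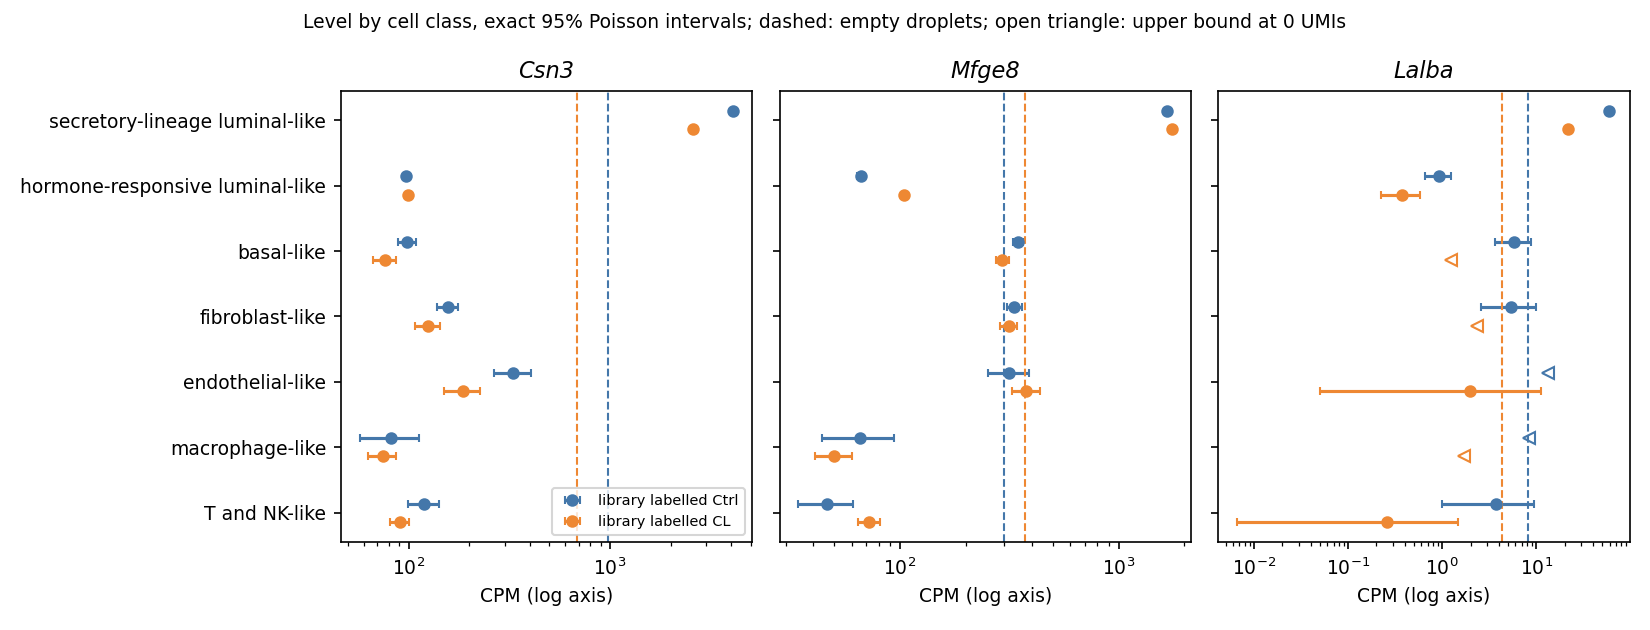
Levels of Csn3, Mfge8 and Lalba (CPM, log axis) in 7 cell classes of the library labelled Ctrl (blue) and CL (orange), with exact 95% Poisson intervals, the level of empty droplets as dashed lines and the upper bound of a count of 0 as open triangles. Csn3 is above its empty droplets in secretory-lineage cells, at 4082 and 2586 CPM, and below them in the other 6 classes, while Mfge8 is also between 294 and 378 CPM in basal-like, fibroblast-like and endothelial-like cells.

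The comparison of the libraries asked whether milk protein transcripts differed after clodronate liposomes. In secretory-lineage luminal-like cells Csn3 was lower in CL by 0.66 on the log2 scale (log2 ratio -0.66 [-0.67, -0.65]) and Lalba by more (-1.44 [-1.55, -1.32]), while Mfge8 was nearly level (0.06 [0.05, 0.08]). Over the 2901 genes with at least 50 UMIs and 50 CPM in the higher library the median log2 ratio was 0.00417. Of these genes 0.0345% were at least 2-fold lower in CL, a count of 1, and that gene was Lalba. Lalba met the 50 CPM minimum through Ctrl alone, with 59.5 CPM against 22.0 CPM in CL. Its place among these genes is therefore no support for a difference. At 1.5-fold the share was 0.724% (21 genes) and included Lalba and Csn3, 2 of the 3 members tested. With equal weight for the 4 clusters of the class that held at least 50 cells of each library, Csn3 was at -0.55 and no longer past 1.5-fold, and Lalba was at -0.97 and no longer past 2-fold. For Csn3, 15 of the 2901 genes had a lower ratio. Lowering the minimum to 20 CPM gave 5 of 5425 genes (0.0922%) that were at least 2-fold lower, namely Gpx3, Spp1, Lalba, Aqp1 and Fxyd2. Gpx3 and Fxyd2 were also leading genes of hormone-responsive clusters and Aqp1 of an endothelial cluster, and the part of such transcripts in these ratios was not tested.

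Both members that were lower in CL cells were also lower in its free RNA. The log2 ratio in empty droplets was -0.51 for Csn3, -0.90 for Lalba and 0.32 for Mfge8. Subtracting the CPM of T and NK-like cells of the same library left Csn3, Lalba and Mfge8 in secretory-lineage cells with their direction, and Mfge8 at 0.04.

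Apart from 48 Ctrl and 16 CL dividing cells, the secretory-lineage cells formed 5 clusters, of which 4 held at least 50 cells of each library. Csn3 was lower in CL in 4 of the 4. In cluster 2, led by Plet1, Aldh1a3 and Cck, it had 5388 CPM in Ctrl and 4172 CPM in CL (log2 ratio -0.37 [-0.39, -0.35]). In cluster 4, led by Plet1, Aldh1a3 and Wfdc18 with the cytokine genes Csf3 and Lif, it had 4489 and 2605 CPM (-0.79 [-0.81, -0.76]). Cluster 6 had 3347 and 2244 CPM (-0.58), and cluster 12 had 2313 and 1592 CPM (-0.54). Lalba was lower in all 4 of these as well, by -0.36 in cluster 2, -1.31 in cluster 4, -1.12 in cluster 6 and -1.85 in cluster 12, the last from 20 and 8 UMIs. Mfge8 ranged only from -0.04 to 0.05.

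The clusters also differed from each other in the members. Within Ctrl the highest of these 4 exceeded the lowest 2.33 times for Csn3, 1.20 times for Mfge8 and 24.2 times for Lalba, and within CL 2.62, 1.27 and 35.2 times. Of these 4 clusters Lalba was highest in cluster 4 in Ctrl, at 108 CPM. In CL cluster 4 had 43.8 CPM, with 75 of its 515 UMIs in 1 cell, and cluster 2 had 39.4 CPM. Without the cell with most Lalba in each they had 37.5 CPM [34.1, 41.2] and 34.9 CPM [30.3, 40.0]. The order of these 2 in CL is thus not settled. Lalba was scarce in cluster 12, with 4.48 and 1.25 CPM. The fifth cluster, cluster 5, lay almost wholly in CL, with 24 Ctrl and 974 CL cells, and was led by the lactoferrin gene Ltf with Wfdc18 and the antigen presentation gene Cd74. Its Csn3 was alike in both libraries, 2494 and 2520 CPM (0.01 [-0.09, 0.12]), while its Lalba was 134 CPM [96.8, 180] in Ctrl, from 43 UMIs of which 1 cell held 26, and 9.02 CPM in CL (-3.89); without that cell the Ctrl level was 58.4 CPM [34.0, 93.5]. Without this cluster the class ratio of Lalba was -1.12. With equal weight for the 4 other clusters Mfge8 was at 0.02.

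**Figure D2:**
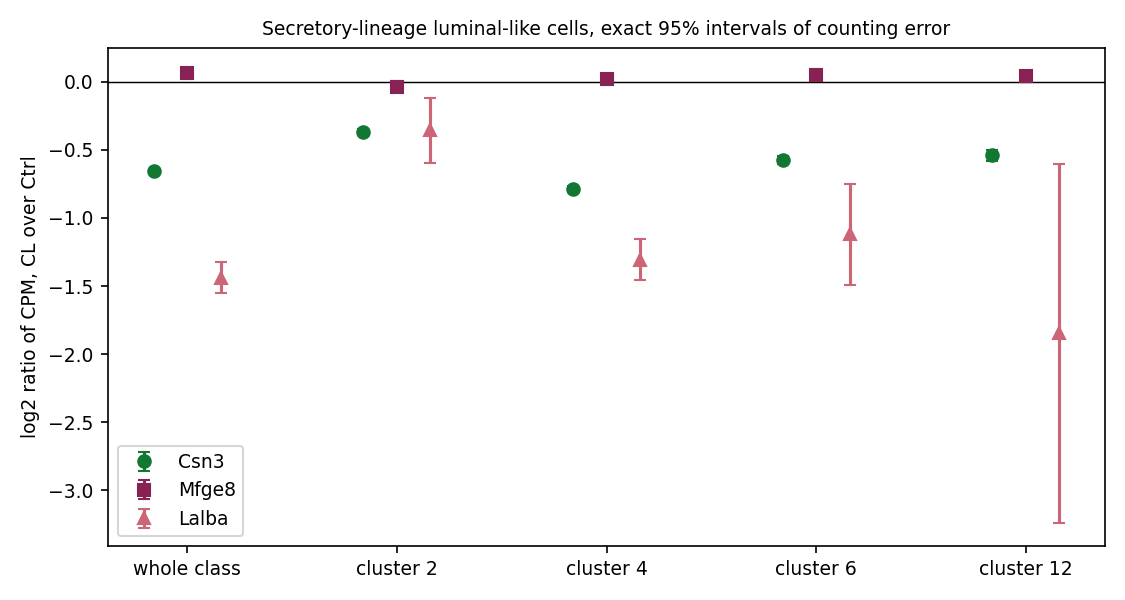
Log2 ratio of CL over Ctrl for Csn3, Mfge8 and Lalba in all secretory-lineage luminal-like cells and in the 4 clusters with at least 50 cells of each library, with exact 95% intervals of counting error. Csn3 lies between -0.37 and -0.79 and Lalba between -0.36 and -1.85 in the clusters, while Mfge8 stays between -0.04 and 0.05.

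Over single cells Csn3 was broad. The median secretory-lineage cell had 3638 CPM in Ctrl and 2012 CPM in CL, the 10th percentile was 642 and 212 CPM, and the 90th was 8341 and 5926 CPM, so each of these percentiles lay lower in CL. After thinning every cell to 2000 UMIs, Csn3 was found in 92.6% [91.5, 93.5] of Ctrl and 85.5% [84.4, 86.6] of CL cells, against 11.9% and 10.9% of T and NK-like cells; 64 and 83 shallower secretory-lineage cells were left out. Unthinned, at median depths of 9697 and 9149 UMIs in secretory-lineage and 4872 and 4458 in T and NK-like cells, the shares were 97.1% and 94.8% against 28.6% and 22.1%. Mfge8 was in 89.9% and 91.9% of thinned secretory-lineage cells, and in 8.76% and 7.88% of thinned T and NK-like cells. Its median cell had 1476 and 1593 CPM.

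Lalba was a gene of few cells. It was found in 6.32% [5.42, 7.33] of thinned Ctrl and 3.0% [2.48, 3.59] of thinned CL cells of the secretory lineage (15.5% and 7.57% unthinned), and in 0 of 194 and 1 of 685 thinned T and NK-like cells. The 10% of cells with most Lalba held 92.0% of its UMIs in Ctrl and 100% in CL. The highest cell had 45 UMIs in Ctrl and 75 in CL, which was 7.79% of all Lalba in the CL class. Over secretory-lineage cells thinned to 2000 UMIs, of which 83.0% in Ctrl and 78.7% in CL held both Csn3 and Mfge8, the 2 genes were hardly related (Spearman rho -0.06 and -0.04). Csn3 and Lalba were weakly related (0.13 and 0.11), which at the sparse counts of Lalba is no finding.

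**Figure D3:**
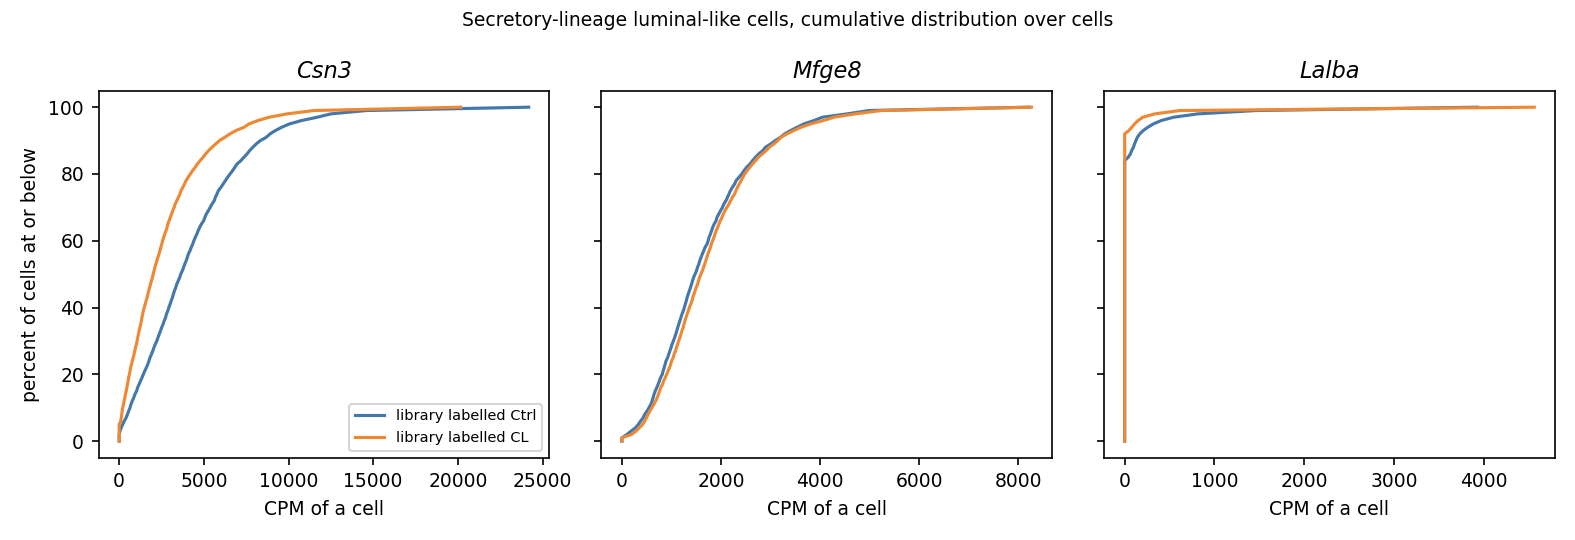
Cumulative share of secretory-lineage luminal-like cells (percent) at or below a given CPM of Csn3, Mfge8 and Lalba, for the library labelled Ctrl (blue) and CL (orange). The CL curve of Csn3 rises sooner, with medians of 2012 against 3638 CPM, the Mfge8 curves nearly coincide, and the Lalba curves start at the large share of cells without a UMI.

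The caseins other than Csn3, together with Wap and Glycam1, were at the limit of detection. Any of these 5 members was found in 54 of 5937 Ctrl cells and 57 of 8826 CL cells, and 2 or more of them in the same cell only in 1 and 3 cells. Csn1s2a, an alpha-S2-casein gene, had 36 UMIs in secretory-lineage cells of Ctrl and 37 of CL (log2 ratio -0.47 [-1.17, 0.23]). Csn1s1, the alpha-S1-casein gene, had 25 and 56 UMIs (0.65 [-0.05, 1.40]). Both intervals include 0. They rest on single cells, for without the cell with most of its UMIs, in CL each time, Csn1s2a was at -1.22 [-2.05, -0.41] and Csn1s1 at -0.06 [-0.85, 0.74], so no direction is read for either. Wap had 7 and 26 UMIs (1.38 [0.14, 2.83]), but 14 of the 26 came from a single cell, without which the ratio was 0.27 [-1.19, 1.85].

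The mean level of each scarce member in secretory-lineage cells had an interval that overlapped that of the empty droplets; for Csn1s1 the levels were 0.812 and 1.28 CPM in cells and 0.272 and 0.541 CPM in droplets. Even so, nearly all UMIs of both alpha-caseins lay in this class, 25 of 25 (Ctrl) and 56 of 57 (CL) for Csn1s1 and 36 of 39 and 37 of 39 for Csn1s2a. Hormone-responsive luminal-like cells had 0 Csn1s1 UMIs in either library, with exact upper bounds of 0.0842 and 0.0718 CPM below the intervals of the secretory-lineage cells. They had 2 and 1 UMIs of Csn1s2a, so secretory-lineage cells were higher by 4.68 [2.72, 7.78] in Ctrl and 5.44 [2.87, 10.8] in CL on the log2 scale. In both libraries most cells with Csn1s2a had 1 UMI, 35 of 37 in Ctrl and 24 of 25 in CL. In Ctrl 4 of the 10 cells with Csn1s1 had 3 or more UMIs, and the highest held 6 of the 25. The highest Csn1s1 cell, in cluster 4 of CL, held 22 of the gene's UMIs beside 145 of Csn3. The highest Csn1s2a cell, in cluster 2 of CL, held 15 of the 39 in that library. Csn2, the beta-casein gene, had 0 UMIs in secretory-lineage cells of Ctrl, which at a limit of 3 counts allows up to 0.0974 CPM (exact 95% upper bound 0.120 CPM), and 12 in CL from only 2 cells, with 8 and 4 UMIs, both in cluster 4. The cell with 8 held no Csn3. Glycam1 had 0 UMIs in secretory-lineage cells of either library; its highest cell had 4 UMIs and was a CL endothelial-like cell of the cluster led by the venule genes Selp, Sele and Ackr1.

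**Figure D4:**
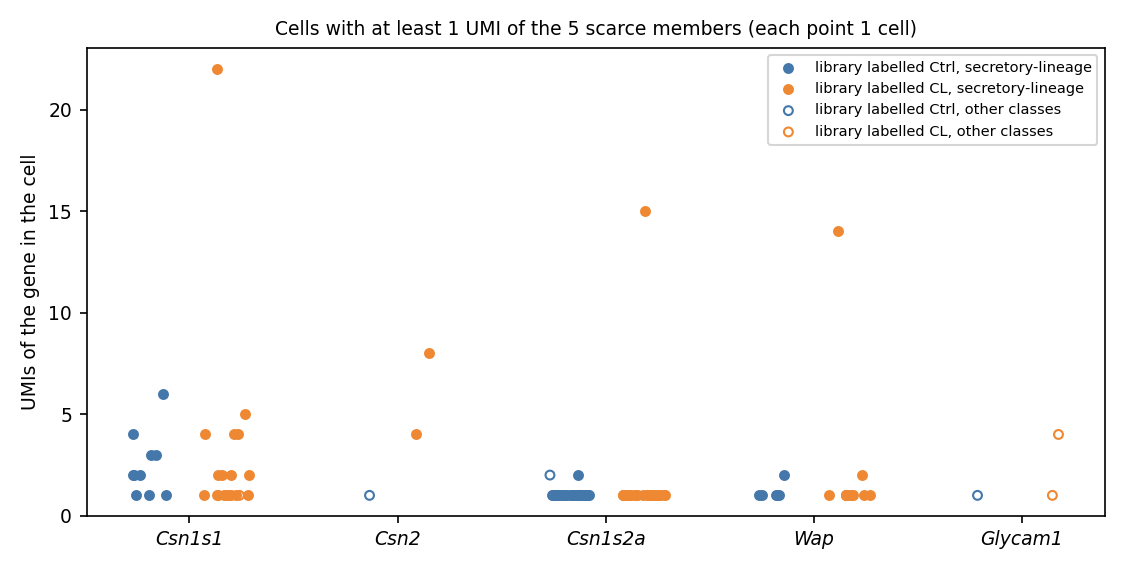
UMIs of the 5 scarce members in each cell that held at least 1, by library (blue Ctrl, orange CL), filled for secretory-lineage luminal-like cells and open for other classes. Most cells have 1 UMI, and single CL cells reach 22 (Csn1s1), 15 (Csn1s2a), 14 (Wap) and 8 (Csn2).

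The 4 casein members lie in one stretch of chromosome 5 on GRCm38, chr5:87666208-87932665. GENCODE annotates 13 genes between Csn1s1 and Csn3, and 9 of them are in the matrices. Csn3 gave 99.9% of the UMIs of these 9 genes in secretory-lineage cells of Ctrl and 99.8% in CL. Csn1s2b, a further alpha-S2-casein gene, had 60 and 74 UMIs, Odam, an enamel matrix gene, 11 and 9, and Gm42794, antisense to Prr27, 2 and 0. Prr27 and BC037156 had none in these cells.

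The genes of the pathway that controls milk proteins were read first in secretory-lineage cells. Of 16 prolactin signalling and lactogenic genes 8 passed the minimum in secretory-lineage cells, and 0 were past 1.5-fold in either direction, with a median log2 ratio of -0.06. Over all genes tested only 0.724% were lower and 1.41% higher by as much, so this count says nothing particular of the list. Elf5, a transcription factor of the secretory lineage, went from 98.7 to 80.7 CPM (-0.29). The prolactin receptor gene Prlr had 115 and 99.9 CPM (-0.21), far below its hormone-responsive level of 3156 and 2543 CPM and its level in the empty droplets (1213 and 908 CPM), with T and NK-like cells at 72.9 and 70.6 CPM, so no change of secretory-lineage cells is read from it. Nfib was at -0.13 and Cebpb at 0.12, both above the droplets, and Akt1 at 0.13, with levels below them. In hormone-responsive cells 1 of 7 was lower by 1.5-fold, against 1.96% of all genes tested there. It was Stat5a, which encodes a STAT5 factor (99.8 and 57.1 CPM, -0.80). The empty droplets had 63.2 and 35.1 CPM of Stat5a, and the libraries differed in the clusters that made up this class. The part of either in the ratio was not tested. Stat5a was below the minimum in secretory-lineage cells, at 13.8 and 11.5 CPM. In basal-like cells 2 of 9 were lower by as much, Socs2, a feedback inhibitor of cytokine signalling, and Id2, both at -0.64, against 1.3% of all genes tested.

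Other secreted proteins did not share a direction in secretory-lineage cells. Of 13 genes 6 passed the minimum, with 1 lower and 1 higher by 1.5-fold and a median of 0.10; over all genes tested 0.724% were lower and 1.41% higher by as much. The transferrin gene Trf, itself a naming marker of the class, was lower (1155 and 679 CPM, -0.77), as was the mucin gene Muc15 (-0.46). Lactoferrin (Ltf), an iron-binding defence protein, was higher, from 1475 to 2216 CPM (0.59), as was the lipocalin gene Lcn2 (0.33), and Wfdc18 was at 0.09. The Ltf-led cluster 5 lay almost wholly in CL. Without it Ltf was at 0.45 and Trf at -0.63, and with the 4 other clusters weighted equally they were at 0.30 and -0.51, so neither was then past 1.5-fold. In hormone-responsive cells 3 of 3 genes tested were higher by 1.5-fold, against 0.981% of all genes tested there, namely Ltf (34.1 and 79.3 CPM, 1.22), Lcn2 (195 and 443 CPM, 1.18) and Wfdc18 (124 and 227 CPM, 0.88). In basal-like cells 1 of 4 was, against 1.98%, again Ltf (24.7 and 90.8 CPM, 1.88). In both classes Ltf met the 50 CPM minimum through CL alone, so neither count is support for a difference. Each of these levels lay below that of the empty droplets, where Ltf had 201 and 358 CPM, Lcn2 2141 and 3031 CPM and Wfdc18 938 and 1245 CPM, and the part of free RNA in these ratios was not tested.

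Of 19 milk fat genes only 4 passed the minimum, with a median of -0.35 and 1 lower by 1.5-fold, against 0.724% of all genes tested. That gene was Scd1, a fatty acid desaturase, with 155 and 95.3 CPM (-0.70); without cluster 5 it was at -0.46 and no longer past 1.5-fold. Plin2, which coats lipid droplets, was at -0.30, Btn1a1, a protein of the globule membrane, at -0.40 and Cidea at 0.04. Xdh, the enzyme that partners butyrophilin on the globule, was below the minimum at -0.16. In basal-like cells 0 of 1 milk fat genes tested were lower by 1.5-fold. In hormone-responsive cells 2 of 5 were, against 1.96% of all genes there, the desaturase gene Scd2 (-0.78) and Insig1 (-0.66). Scd2 had 78.1 and 45.5 CPM and Insig1 60.4 and 38.2 CPM. Both thus met the 50 CPM minimum through Ctrl alone, and the count is no support for a difference. In the empty droplets Scd2 had 56.9 and 25.6 CPM and Insig1 42.1 and 26.7 CPM. The part of free RNA in these ratios was not tested. Of the 7 lactose synthesis genes 3 passed and 0 were past 1.5-fold, which at the shares over all genes says nothing particular of them: the glucose transporter gene Slc2a1 at 0.14, Ugp2 at -0.24 and Hk1 at 0.21. The hexokinase gene Hk2, below the minimum with 25.6 and 20.1 CPM, was at -0.35. B4galt1, whose product forms lactose synthase together with Lalba, was below the minimum at 34.8 CPM in both libraries.

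**Figure D5:**
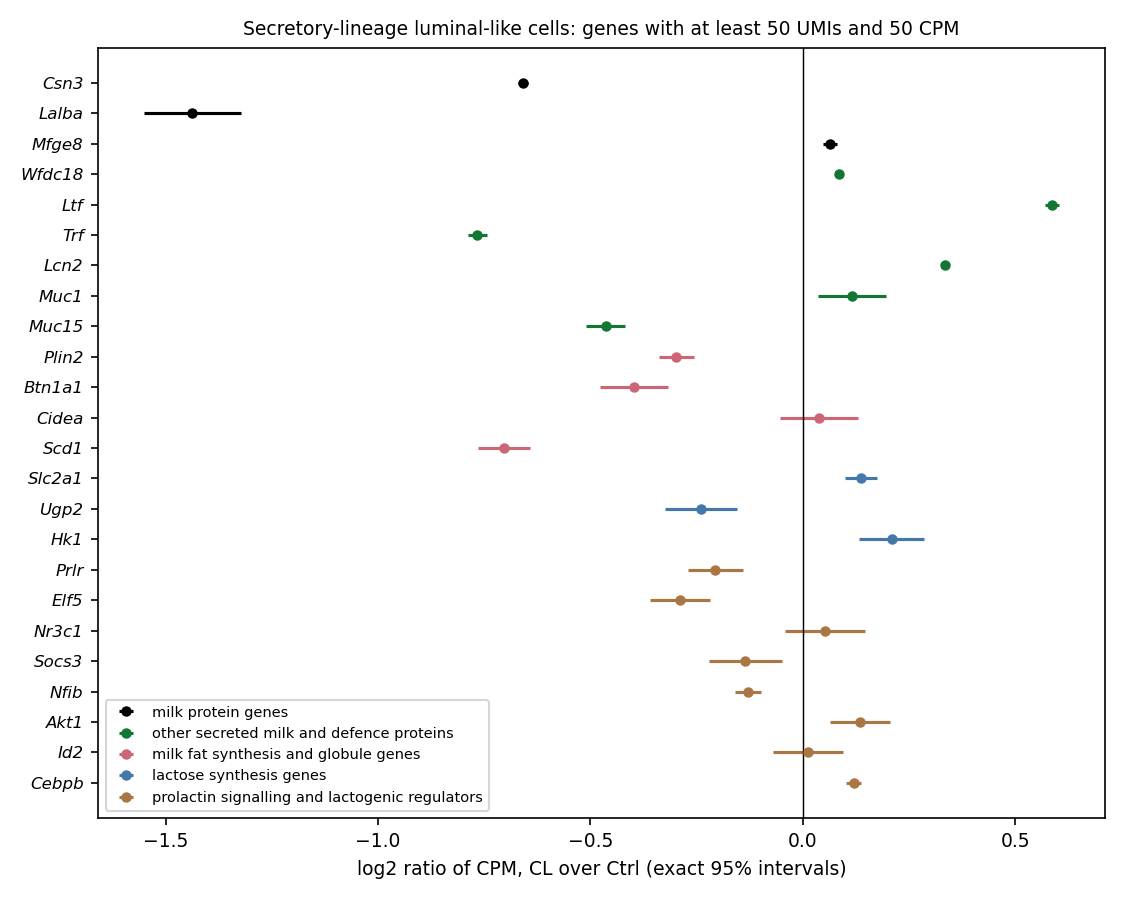
Log2 ratio of CL over Ctrl in secretory-lineage luminal-like cells for the 3 members and the genes of 4 lists that had at least 50 UMIs and 50 CPM, with exact 95% intervals of counting error. Lalba (-1.44) is lowest and Ltf (0.59) highest, and the 8 lactogenic regulators lie between -0.29 and 0.13.

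Over the 21 clusters of at least 30 cells, the genes whose log2(CPM + 1) followed Csn3 most closely among 5896 were Atp6v1b1, a proton pump subunit (Pearson r 0.98), Plet1 (0.97) and Aldh1a3 (0.97), of which the last 2 are naming markers of the class. Lalba was followed by Btn1a1 (0.90), Wnt5b (0.89) and Wipi2 (0.87), and Mfge8 by the transcription factor gene Fosl1 (0.93), Igfbp5 (0.93) and Yrdc (0.92). These clusters share libraries and free RNA, and the values are descriptions. The other 5 members were too scarce for such a comparison.

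In the other epithelial classes Csn3 and Lalba were at or below the empty droplets, and Mfge8 was below them except in basal-like cells of Ctrl, and no difference between the libraries is read from their ratios. In hormone-responsive luminal-like cells Csn3 was at 0.04 [-0.02, 0.10]. The sum of the 8 members there was higher in CL (0.32), but it was lower (-0.10) when a cluster of dividing cells was named as a whole, so no direction is read from it. In that class most Ctrl cells lay in clusters 11 and 1 and most CL cells in clusters 8, 10 and 1. In basal-like cells Csn3 was at -0.37 and Mfge8 at -0.23 [-0.36, -0.11], and Lalba had 22 UMIs in Ctrl, of which 1 cell held 15, and 0 in CL.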

How the data were processed

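Per the labels, mammary cells were sequenced as 10x Genomics 3′ libraries, 1 per group. The authors deposited raw UMI counts as unfiltered matrices of 32285 genes by 6794880 barcodes. The labels name Cell Ranger 2.1.1 and mm10, while the file headers name Cell Ranger 4. Barcode lists of 7217 (Ctrl) and 10555 (CL) entries did not index the columns, so as many barcodes with most UMIs were taken as candidates. Cells with at least 500 genes and at most 15% mitochondrial UMIs were kept. Scrublet marked 360 Ctrl doublets, its automatic threshold found none in CL, and the Ctrl threshold, used for both, marked 509 there. Counts were scaled to 10000 UMIs and clustered in scanpy 1.11.5 (2000 variable genes without the members, 30 components, 15 neighbours, Leiden resolution 1).

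Each cluster was given the best-scoring class, with at least 3 markers 2-fold above the median cluster, and stayed unnamed where another class reached 60% of it; 3 of 24 did. That scoring was written after the data were seen. The dividing cluster was first named as a whole, then cell by cell over all marker lists, and finally cell by cell over the 3 epithelial lists, each change made after member values had been seen. This turned the direction of the hormone-responsive member sum and moved hormone-responsive Csn3 from 167 and 119 CPM to 97.3 and 99.8 CPM.

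UMIs were summed per library and class. Intervals are exact Poisson for levels, conditional binomial for ratios and Clopper-Pearson for shares, at 95%. Members and lists were chosen with earlier results of these data known. Named genes were the members, the 5 most abundant genes of each list in secretory-lineage cells, the casein locus, and the 3 genes most like each member; the other genes named by their ratio, and Stat5a, Socs2, Id2, Scd2 and Insig1, were chosen after their values were seen. Gene positions came from GENCODE, in which 32158 of 32285 identifiers were found, and no protein sequences were used. On simulated data with 200 changed genes among 2790 in the secretory-lineage class, the interval held the true ratio for 96% of changed genes. Those counts were drawn from the Poisson model that the interval assumes, without clumping in cells or variation between replicates. They check the calculation only and say nothing of coverage in these data. Alternatives covered cell filters, doublets, resolution, variable genes, naming, scaling (edgeR 4.0.16 TMM), free RNA and thinning.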

Additional observations from a re-analysis of the deposited data

Results flagged for a closer look

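Candidate barcodes above 15% mitochondrial UMIs were left out of the cells. In them Mfge8 had 137 CPM in the library labelled CL, above the 88.1 CPM of Ctrl, with intervals that did not overlap. Both values lay below the empty droplets of their library. With 1 library per group, samples that stand apart within a group and differences between groups in an effect could not be looked for.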

How the results depend on the processing

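No paired analysis was possible because each group has 1 library, which also leaves no replicate to leave out. In secretory-lineage luminal-like cells, members with UMIs in both libraries whose interval excluded 0 kept their direction under each alternative run. These runs were 21 each for Csn3 (-0.67 to -0.55), Lalba (-1.55 to -0.97) and Mfge8 (0.02 to 0.11) and 19 for Wap (0.27 to 1.53). The interval of Csn2 also excluded 0, but with 0 UMIs in Ctrl and 12 in CL it had no ratio to follow. Without the cell with most Wap UMIs the interval of Wap included 0. Csn3 no longer reached 1.5-fold and Lalba 2-fold with clusters weighted equally. Csn1s1 and Csn1s2a, whose intervals included 0, ranged from -0.07 to 0.81 and from -1.22 to 0.07, and that of Csn1s2a excluded 0 without the cell with most of its UMIs.

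The sum of the 8 members was -0.42 in that class and -0.27 over all cells, and it follows Csn3: without it the sums reversed to 0.032 and 0.16, and that of hormone-responsive cells moved to 0.64. The hormone-responsive sum (0.32) reversed with at least 1000 genes (-0.10), 200 genes (-0.15), no mitochondrial limit (-0.21), doublets kept (-0.27), Leiden resolution 0.5 (-0.012) or 2.0 (-0.50) and the dividing cluster named as a whole (-0.10). It moved with a 5% mitochondrial limit (0.70), milk lists kept out of the variable genes (0.36), cells named on their own (0.52) and CPM averaged over cells (0.038). The basal-like sum (-0.28) reversed with doublets kept (0.21) and moved to -0.44 after T and NK-like CPM were subtracted. The all-cell sum moved with 200 genes (-0.28), a 5% limit (-0.35), CPM averaged over cells (-0.39), TMM (-0.22), the subtraction (-0.29) and without the secretory-lineage cluster mostly of CL (-0.50). The secretory-lineage sum moved with cells named on their own (-0.43), TMM (-0.37) and the subtraction (-0.43). The cause of these shifts was not tested. The settings without that cluster, with clusters weighted equally, without the cell with most UMIs, with 1.5-fold or 20 CPM, and for dividing cells were chosen after seeing the data.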
